A study of Mus musculus with 14 samples.

Results

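The hepatocyte lineage transcription factors described here are 8 genes, Hnf4a, Foxa1, Foxa2, Foxa3, Cebpa, Cebpb, Onecut1 and Prox1, chosen by gene symbol from the 22850 gene rows of the deposited table. Each symbol had 1 row, so no choice between rows was needed, and the rule uses no measured value. RNA was sequenced from whole frozen livers of C57BL/6N mice that entered the diets at 7 weeks of age. The first group, HFWD+sugar, had 5 livers from mice given a high-fat Western diet with 40% of its energy from fat and, in the drinking water, 42 g/L of sugar made of 55% fructose and 45% sucrose. The second, HFWD, had 5 livers from mice given the same diet without sugar. The third, chow, had 4 livers from mice kept on standard chow, in which fat supplied about 12% of the energy. No allele or transgene is named for any group. Sex, feeding time and housing of the mice are not stated in the labels. The p-values below measure the spread between these livers only.

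Values are the authors' normalized values per gene row, called units here, on a linear scale whose lowest entry is exactly 1. They are not divided by gene length. The most common value above the floor in a library, called its step, was taken to approximate what 1 read is worth. It ranged from 2.47 units (HFWD+sugar 4) to 6.85 units (chow 4), and lower values above the floor also occur. Each library's summed units over its step, its depth in read equivalents, came to 3770000 in chow 4, 5840000 in HFWD 1 and 7190000 to 9340000 in the other 12 libraries. The libraries chow 4 and chow 2 also had the lowest weights when limma estimated the precision of each library, at 0.349 and 0.444. The median log2 difference over all 14770 rows tested was 0.12 for HFWD+sugar against chow. Hepatocyte markers were present, but the Alb row, for albumin, held only 1486 ± 376 units per kb of exon (SD, n = 14), less than the Foxa3 row and less than the 4948 ± 551 units per kb of the row for the T cell gene Cd8a, while Cd3e stood at the floor of 1 in every liver. Symbols therefore name rows of the table, and whether each row carries reads from its own gene's strand alone was not tested.

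The 8 factors are the core of the network that makes and keeps a hepatocyte. The FOXA proteins open closed chromatin, and HNF4A, the C/EBP proteins and ONECUT1 then hold liver genes active, partly by acting on each other's promoters. PROX1 limits some of that activity and is needed for hepatocytes to leave the early liver bud.

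The RefSeq table of promoters (GRCm38.p6, a later build than the mm9 coordinates of the deposited rows) held windows for all 8 factors, 12 windows in all, because some genes have more than 1 start. The 250 bases before the start are shown for Cebpa, the 1 factor whose row differed between diets by the test, and for Foxa2 and Onecut1, whose rows varied together between livers. Sequences run 5′ to 3′ on the gene's strand, and capitals mark matches to the motifs searched other than the GC box.
Cebpa, chr7:35119043-35119292, plus strand: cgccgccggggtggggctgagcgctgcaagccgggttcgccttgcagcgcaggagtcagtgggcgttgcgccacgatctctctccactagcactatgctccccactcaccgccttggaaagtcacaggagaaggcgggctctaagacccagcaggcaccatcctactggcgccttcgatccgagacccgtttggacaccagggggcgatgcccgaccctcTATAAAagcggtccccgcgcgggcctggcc
Foxa2, first start, chr2:148046970-148047219, minus strand: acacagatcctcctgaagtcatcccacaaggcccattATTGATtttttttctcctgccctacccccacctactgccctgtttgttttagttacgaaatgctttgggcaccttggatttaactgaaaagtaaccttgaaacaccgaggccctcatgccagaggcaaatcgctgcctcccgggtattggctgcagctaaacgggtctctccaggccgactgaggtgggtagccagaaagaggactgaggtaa
Onecut1, chr9:74861671-74861920, plus strand: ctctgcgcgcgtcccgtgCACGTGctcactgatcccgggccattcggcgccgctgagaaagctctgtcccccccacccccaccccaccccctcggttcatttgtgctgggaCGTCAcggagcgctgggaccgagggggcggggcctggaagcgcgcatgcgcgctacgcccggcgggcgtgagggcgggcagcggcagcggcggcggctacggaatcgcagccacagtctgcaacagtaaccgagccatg

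The motifs searched, on both strands of the 250 bases before and 50 after each start, were TGTTTAC and TGTTTGC (FOXA), CAAAGTC (HNF4A core), TTGCNNAA (C/EBP), ATTGAT (ONECUT core), GTTAAT (HNF1), TGACG (cAMP response core), CACGTG (the E-box), TATAAA (the box bound by TBP) and GGGCGG (the GC box). The Cebpa window held TATAAA, 30 bases before the start, which 13.6% of the 32851 promoters hold. Of the 8 factors, 5 held TATAAA or its reverse in a window, where the share above is of single windows and some factors have several. Foxa3 held it 36 bases and Prox1, in reverse, 34 bases before a start. In Cebpb it lay 21 bases after the start, and in Foxa2, in reverse, 208 bases before the third start. Of the 3 Foxa2 windows, the first held ATTGAT, the core bound by ONECUT proteins, 213 bases before the start, and the others did not hold it. That core is in 7.54% of all promoters, a share of single windows that is lower than the share for a gene with several. Among the 8 factors it was also found, on the other strand, in a window of Hnf4a. The Onecut1 window held CACGTG 232 bases and CGTCA, the reverse of TGACG, 139 bases before the start. These letters occur in 7.15% and 20.8% of all promoters. Foxa1, not printed here, held the FOXA site as GTAAACA 141 bases before its start, a match that 3.65% of promoters have. A window of Prox1 held the other FOXA form, TGTTTGC, 120 bases before the start, as 5.065% of promoters do. A match is a description of the letters and shows no binding.

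Against chow, the Cebpa row rose in HFWD+sugar livers and was the only one of the 8 rows that passed the test in any comparison of diets. Of the 8 rows, 1 was called in HFWD+sugar against chow, where limma called 9.05% of all 14770 rows tested at an adjusted p under 0.05. The 1336 rows behind that share were 837 higher and 499 lower, and with each library centred on its median they were 420 higher and 1151 lower. None was called in HFWD against chow, where 3.38% of all rows were. None was called in HFWD+sugar against HFWD, where 0 rows in the table (0%) were called. At an unadjusted p under 0.05 by limma the counts were 2 of 8, 2 of 8 and 0 of 8, beside 24.8%, 16.2% and 8.62% of all rows. The 2 rows in both comparisons against chow were Cebpa and Foxa1. In all 3 comparisons the values of the diets overlapped for every one of the 8 factors. Over all rows tested, 9.71%, 5.84% and 2.2% had groups that did not overlap, so none among 8 is close to those shares. The median log2 difference over the 8 was 0.10 for HFWD+sugar against chow, 0.03 for HFWD against chow and -0.12 for HFWD+sugar against HFWD, and over all rows it was 0.12, 0.04 and 0.05. The comparisons against chow share the same 4 chow livers.

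**Figure D1:**
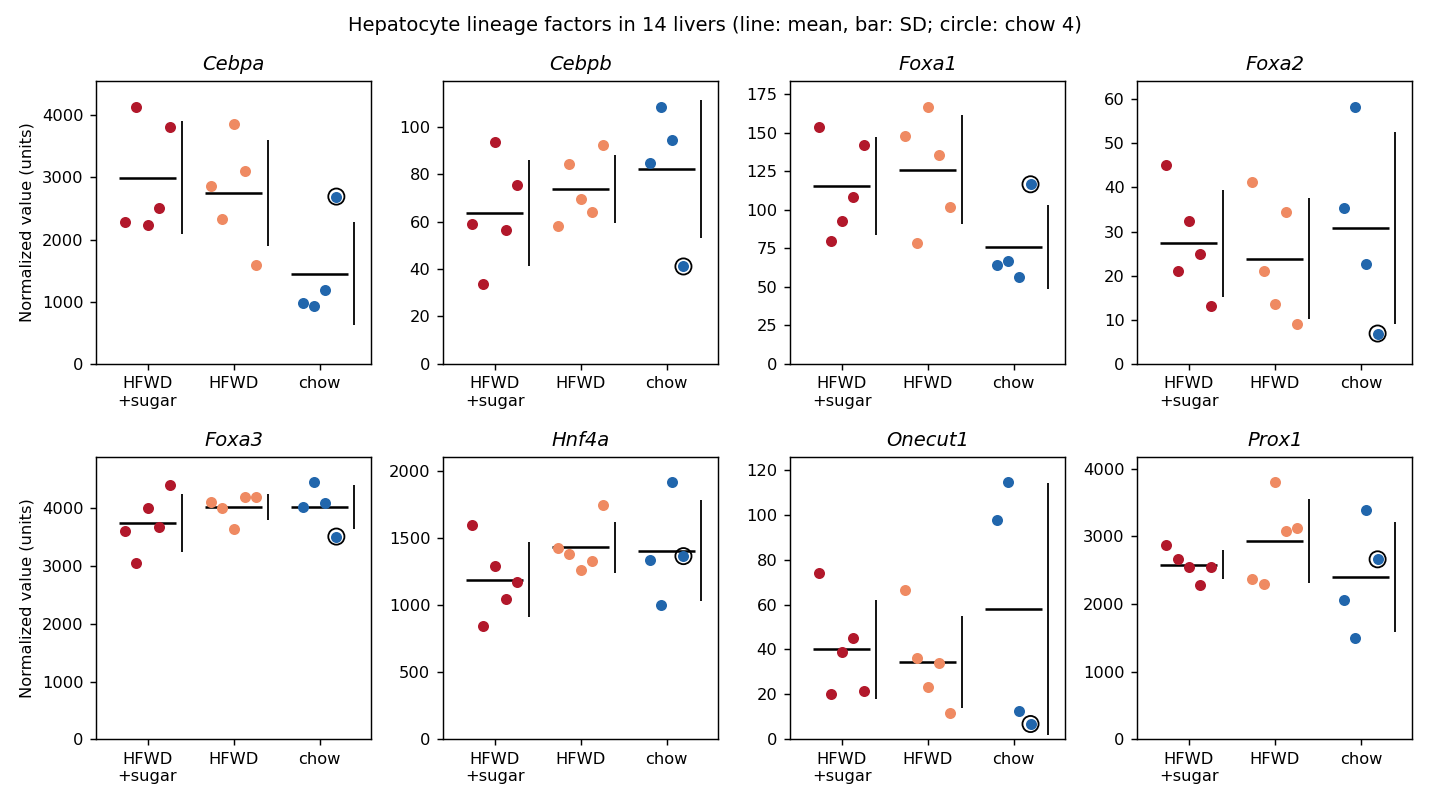
Normalized values in units (vertical axes, from 0) of the 8 factors in each liver, by diet (horizontal axis: HFWD+sugar, HFWD, chow), with the mean as a line, the SD as a bar and chow 4 circled. Chow 4 is the highest chow liver for Cebpa, at 2692 units, and for Foxa1, at 116 units, and the lowest for Foxa2, Onecut1, Foxa3 and Cebpb.

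Cebpa encodes C/EBP alpha, a leucine-zipper factor that keeps adult hepatocytes out of the cell cycle and drives genes of glucose and urea metabolism. Its row (chromosome 7, 35904312 to 35906945, plus strand, mm9, a gene with a single exon) held 2291, 4140, 2232, 2508 and 3816 units in HFWD+sugar livers 1 to 5. It held 2868, 2329, 3859, 3098 and 1592 units in HFWD livers 1 to 5. Chow livers 1 to 4 held 985, 936, 1193 and 2692 units. All 10 livers of the Western diets thus stood above chow 1, 2 and 3, and chow 4 stood among them, above 3 of the 5 HFWD+sugar livers and 2 of the 5 HFWD livers. Means were 2998 ± 908 units in HFWD+sugar livers, 2749 ± 849 in HFWD livers and 1452 ± 835 in chow livers (SD, n = 5, 5 and 4).

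On the log2(value + 1) scale Cebpa was 1.14 higher in HFWD+sugar than in chow livers (SE 0.29, 2.20-fold, limma with Benjamini-Hochberg adjustment over all rows, adjusted p = 0.0236). The two-sided exact permutation test gave p = 0.0635, where 4 against 5 livers can go no lower than 0.0159. In HFWD against chow the difference was 1.01 (95% interval 0.39 to 1.63), with an adjusted p of 0.0717 by limma and an exact permutation p of 0.0476. Between HFWD+sugar and HFWD livers it was 0.13 (95% interval -0.45 to 0.72).

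Single livers decided which side of the threshold Cebpa fell on. In HFWD+sugar against chow, the adjusted p by limma was 0.0600 without HFWD+sugar 2, 0.0587 without HFWD+sugar 5, 0.0728 without chow 1, 0.0546 without chow 2 and 0.0675 without chow 3, and it was 0.106 with no filter on low rows. Without chow 4 it was 0.00131, at a log2 difference of 1.49. In HFWD against chow the row passed without HFWD 5 (adjusted p = 0.0342) and without chow 4 (log2 difference 1.35, adjusted p = 0.00309). As read equivalents, which take out the library's scaling, Cebpa stood at 384, 353, 414 and 393 in chow 1 to 4, at 737 to 1467 in HFWD+sugar livers and at 603 to 1270 in HFWD livers. Read equivalents are not corrected for depth, which was 3770000 in chow 4 and 8150000 to 9140000 in the other chow livers.

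Foxa1, Foxa2 and Foxa3 encode the FOXA forkhead proteins, pioneer factors that bind nucleosomes. The Foxa1 row (chromosome 12, 58641618 to 58647108, minus strand) held 154, 79.6, 92.9, 108 and 142 units in HFWD+sugar livers. In HFWD livers it held 148, 78.5, 167, 135 and 102 units, and in chow livers 64.1, 66.3, 56.2 and 116 units. As with Cebpa, chow 1, 2 and 3 were below all livers of the Western diets and chow 4 was not. The log2 difference from chow was 0.62 (SE 0.27) in HFWD+sugar and 0.74 (SE 0.27) in HFWD livers, with adjusted p of 0.168 and 0.164 by limma. The two-sided exact permutation test gave p = 0.0952 for HFWD+sugar and 0.0476 for HFWD against chow. Without chow 4 both passed, at 0.84 (adjusted p = 0.0496) and 0.96 (adjusted p = 0.0384). The row rests on 17.0 to 54.9 read equivalents per library.

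**Figure D2:**
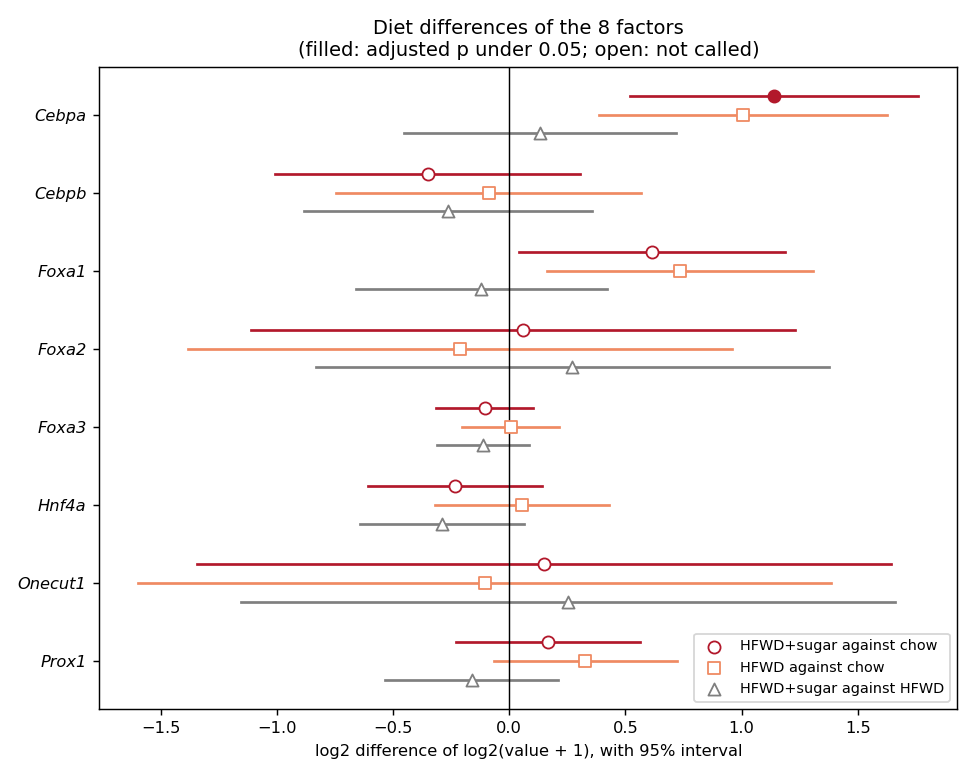
Log2 differences of log2(value + 1) for the 8 factors (vertical axis) in the 3 comparisons, with 95% intervals from limma; filled points have an adjusted p under 0.05 and open points do not. The 1 filled point is Cebpa in HFWD+sugar against chow, and the widest intervals belong to Foxa2 and Onecut1.

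Foxa3 was the steadiest of the 8. Its row (chromosome 7, 19598631 to 19608887, minus strand) held 3605, 3057, 4013, 3680 and 4406 units in HFWD+sugar livers. HFWD livers held 4107, 4015, 3645, 4195 and 4194 units, and chow livers held 4033, 4451, 4095 and 3513 units. The groups lay over one another, and the SD over all 14 livers was 9.75% of the mean. The log2 difference from chow was -0.11 in HFWD+sugar livers (95% interval -0.32 to 0.10) and 0.01 in HFWD livers (95% interval -0.20 to 0.22), so a change of 1.5-fold lay outside both intervals. The sign of the second flipped with centring of each library on its median, to -0.06.

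Foxa2, which in mouse liver is tied to fasting and bile acid control, was near the limit of detection. Its row (chromosome 2, 147868613 to 147872705, minus strand) held 45.0, 21.1, 32.4, 24.9 and 13.0 units in HFWD+sugar livers, 41.3, 21.1, 13.6, 34.4 and 8.98 units in HFWD livers and 35.3, 58.3, 22.6 and 6.85 units in chow livers. Within each diet the highest liver was at least 3.46 times the lowest, and the diets overlapped throughout. These values correspond to 1 to 21.98 read equivalents, with the lowest in chow 4. The log2 difference was 0.06 for HFWD+sugar against chow (95% interval -1.11 to 1.23) and -0.21 for HFWD against chow (95% interval -1.38 to 0.96), so a fall of 2-fold lay inside both intervals and a rise of 2-fold inside the first. The first turned to -0.15 with centring and to -0.50 without chow 4.

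Onecut1 encodes HNF6, a cut-homeodomain factor that acts in hepatocyte and bile duct development. Its row (chromosome 9, 74709728 to 74739282, plus strand) held 74.2, 20.4, 39.1, 45.0 and 21.6 units in HFWD+sugar livers, 66.6, 36.2, 23.4, 34.1 and 11.9 units in HFWD livers and 97.5, 114, 12.5 and 6.85 units in chow livers. The chow livers were the most spread, with 2 above and 2 below every liver of the Western diets but HFWD 5, which lay just under chow 3. The log2 difference was 0.15 for HFWD+sugar against chow (95% interval -1.34 to 1.64) and -0.10 for HFWD against chow (95% interval -1.60 to 1.39). The first turned to -0.06 with centring and to -0.54 without chow 4. In the annotation the Onecut1 row lies inside the transcript Gm16551 on the same strand, which has no row of its own, so their reads cannot be told apart here.

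Foxa2 and Onecut1 varied together between livers. After each diet's mean was removed, their log2 values correlated at Pearson r = 0.89 over 14 livers (within-diet permutation p = 3e-05, Benjamini-Hochberg adjusted over 28 pairs 0.00084) and Spearman rho = 0.87 (permutation p = 0.00026, adjusted 0.00728). Pearson r was 0.87 within HFWD+sugar, 0.93 within HFWD and 0.90 within chow livers, the smallest of these groups having 4 livers. Without chow 2 and chow 4, the livers farthest from the median of Foxa2, r was 0.80. Without chow 4 alone the pair still passed (adjusted p = 0.0101), and with centring the adjusted p was 0.0014. Both rows share the library they were read from, and both are low, so counting error enters both.

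**Figure D3:**
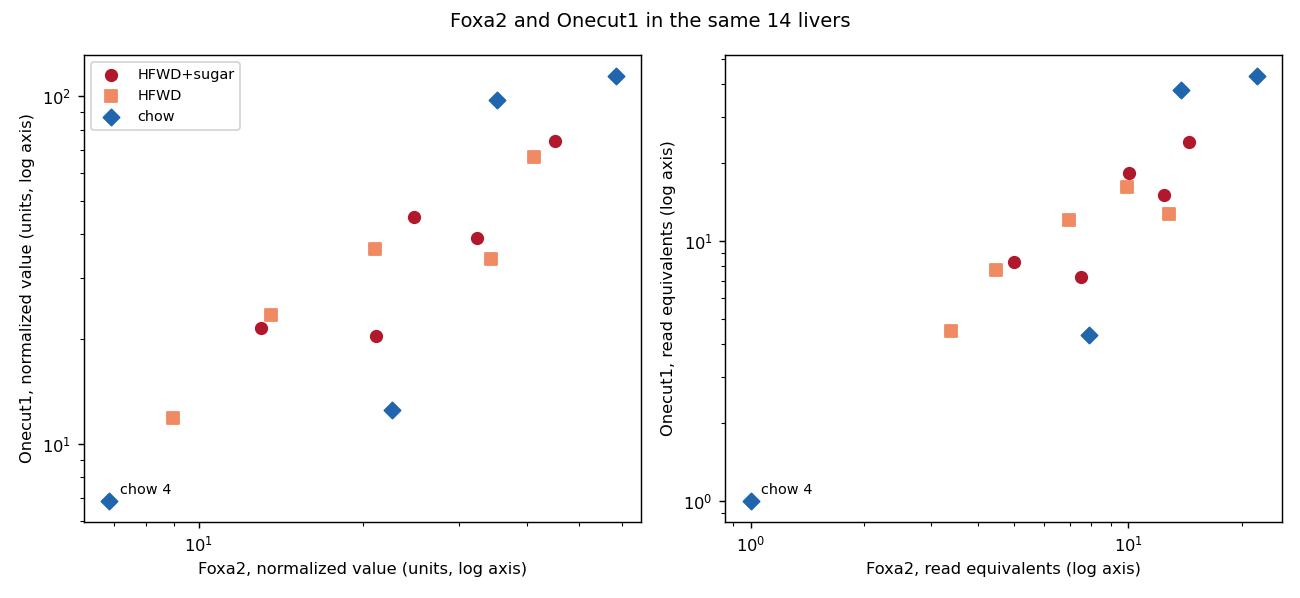
Foxa2 (horizontal) against Onecut1 (vertical) in each of the 14 livers, on log axes, as normalized units (left) and as read equivalents (right), with symbols by diet. Foxa2 and Onecut1 tend to be high in the same livers in each diet, with exceptions between neighbouring livers, from 6.85 units of both in chow 4 to 58.3 and 114 units in chow 2.

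No other pair of the 28 passed. Foxa3 and Cebpb had r = 0.81 (permutation p = 0.00602, adjusted 0.0843) and rho = 0.73 (permutation p = 0.0117, adjusted 0.135). That pair passed with centring (adjusted p = 0.00196) and stood at an adjusted p of 0.475 without chow 4. Cebpa and Cebpb, which bind the same sites, had r = -0.75 (permutation p = 0.0111, adjusted 0.104), negative within each diet. Without chow 4 that pair stood at r = -0.57 (permutation p = 0.0782, adjusted 0.520). Its r within chow livers was then -0.25 in place of -0.96. Onecut1 and Prox1 had r = -0.69 (permutation p = 0.0746, adjusted 0.339), negative within HFWD and chow livers and 0.23 within HFWD+sugar livers.

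**Figure D4:**
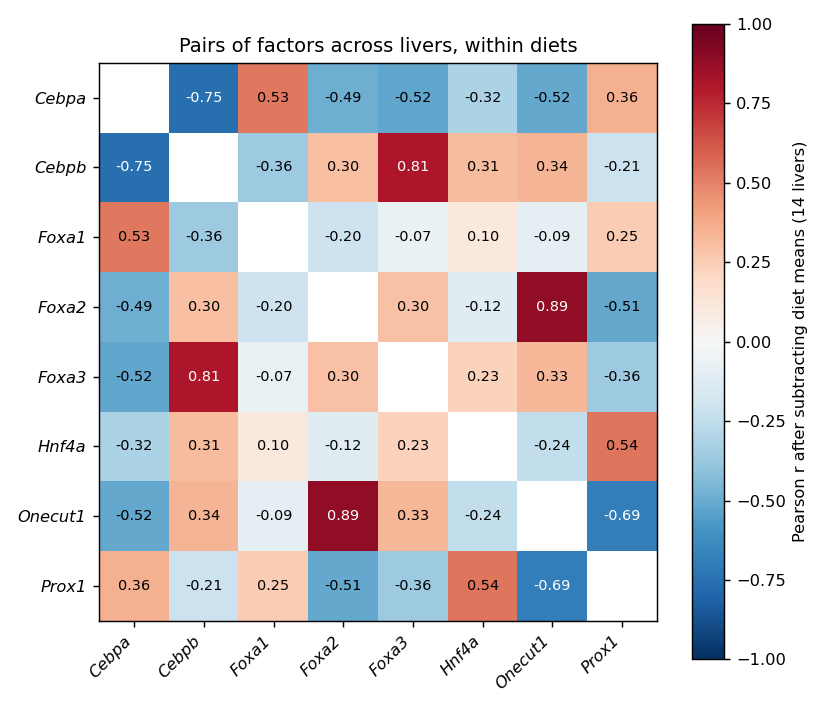
Pearson r for each pair of the 8 factors over 14 livers after diet means were removed (colour scale from -1 to 1, values printed in the cells). Foxa2 with Onecut1 is the highest value, at 0.89, and Cebpa with Cebpb the lowest, at -0.75.

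Hnf4a encodes the nuclear receptor that binds the promoters of a large share of hepatocyte genes. Its row (chromosome 2, 163332544 to 163398646, plus strand) held 1597, 844, 1289, 1048 and 1175 units in HFWD+sugar livers, 1424, 1382, 1264, 1333 and 1750 units in HFWD livers and 1338, 1003, 1915 and 1366 units in chow livers. All 3 diets overlapped, and 1 HFWD+sugar liver, the second, was below every other liver. The log2 difference was -0.23 for HFWD+sugar against chow (95% interval -0.61 to 0.14) and 0.05 for HFWD against chow (95% interval -0.32 to 0.43). Between HFWD+sugar and HFWD livers it was -0.29 (95% interval -0.64 to 0.06).

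Prox1 encodes a homeodomain factor that represses HNF4A-driven genes such as Cyp7a1 and is also made by lymphatic endothelium. Its row (chromosome 1, 191941917 to 191994559, minus strand) held 2881, 2665, 2549, 2288 and 2544 units in HFWD+sugar livers. HFWD livers held 2369, 2295, 3799, 3076 and 3129 units, and chow livers held 2061, 1498, 3389 and 2662 units. The HFWD+sugar livers lay within the range of the chow livers, with an SD of 8.32% of the mean in HFWD+sugar, 21.1% in HFWD and 33.8% in chow livers. The log2 difference was 0.17 for HFWD+sugar against chow (95% interval -0.23 to 0.56), which turned to -0.04 with centring. For HFWD against chow it was 0.33 (95% interval -0.07 to 0.72). Over the 14 livers Prox1 averaged 2657 units. In the list of endothelial and lymphatic markers, Pdpn, Lyve1 and Flt4 averaged 1.23, 11.8 and 20.6 units. Pecam1, Cdh5, Kdr, Tek and Clec4g averaged 17.4, 18.1, 55.2, 19.2 and 26.5 units, and Stab2 and Oit3 averaged 1623 and 3252 units. The part of lymphatic cells in the Prox1 row was not tested.

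Cebpb encodes C/EBP beta, which is induced in the acute-phase response and in fasting. Its row (chromosome 2, 167514415 to 167515918, plus strand) held 59.1, 33.9, 93.9, 56.7 and 75.5 units in HFWD+sugar livers, 58.1, 84.6, 69.5, 64.3 and 92.4 units in HFWD livers and 84.6, 109, 94.7 and 41.1 units in chow livers. The groups overlapped, and 3 of the 4 chow livers were in the upper part of the whole range. The log2 difference was -0.35 for HFWD+sugar against chow (95% interval -1.01 to 0.30) and -0.09 for HFWD against chow (95% interval -0.75 to 0.57). Of its span, 908 bases overlap Tmem189 on the other strand, and Cebpb averaged 72.6 units where the Tmem189 row averaged 2069 units.

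The balance between factors was compared as differences of log2(value + 1) within each liver, in 12 two-sided exact permutation tests, of which none passed after Benjamini-Hochberg adjustment. Cebpb minus Cebpa averaged -5.56 ± 0.85 in HFWD+sugar livers, -5.16 ± 0.71 in HFWD livers and -4.07 ± 1.31 in chow livers (SD, n = 5, 5 and 4). HFWD+sugar differed from chow by -1.49 (exact permutation p = 0.0794, adjusted 0.476). Prox1 minus Hnf4a averaged 1.15 ± 0.31 in HFWD+sugar livers and 0.75 ± 0.18 in chow livers, a difference of 0.40 (exact permutation p = 0.0317, adjusted 0.381, SD, n = 5 and 4). The difference of Foxa3 from Foxa2 between HFWD+sugar and chow livers was -0.17 (exact permutation p = 0.778), and it turned positive, to 0.33, without chow 4.

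Per kb of annotated exon, Foxa3 had the highest level, at 1927 ± 188 units per kb (SD, n = 14). Cebpa followed at 937 ± 397, Prox1 at 643 ± 140 and Hnf4a at 267 ± 56.8 units per kb. A lower set held Cebpb at 48.3 ± 14.5, Foxa1 at 33.8 ± 11.5, Onecut1 at 20.4 ± 15.7 and Foxa2 at 11.4 ± 6.26 units per kb. The only neighbours in this order whose ranges over the 14 livers did not meet were Hnf4a and Cebpb, 5.52-fold apart in the mean. Foxa3 was above Cebpa in 13 of 14 livers, Cebpa above Prox1 in 10 and Prox1 above Hnf4a in 14. Among 14750 rows with a length, Foxa3 stood at percentile 94.3, Hnf4a at 78.7 and Foxa2 at 45.3. The deposited extents of Prox1 and Onecut1 exceed the annotated genes, so their exon lengths are short and their levels per kb high by an unknown amount.

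**Figure D5:**
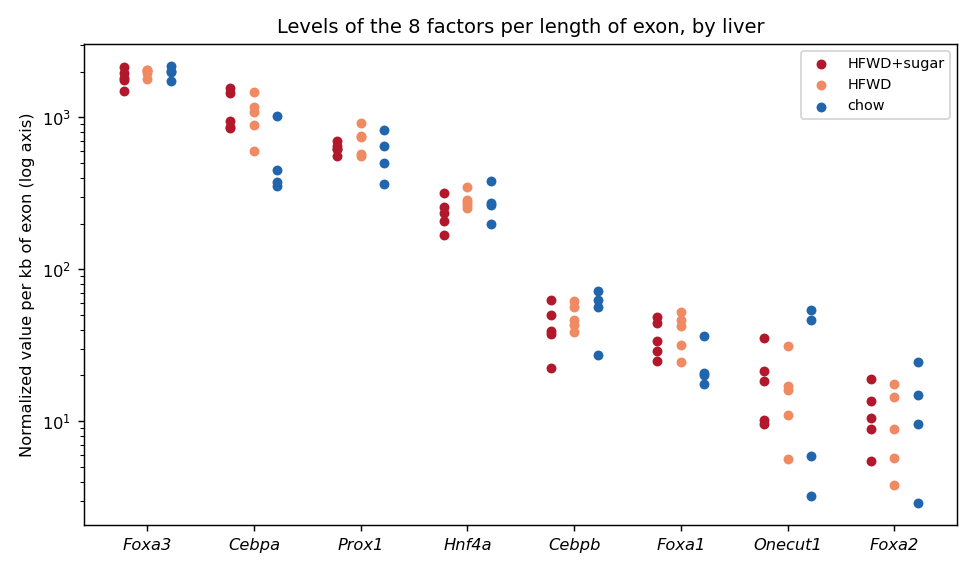
Normalized value per kb of exon (vertical, log axis) of the 8 factors in each liver, in order of the mean over 14 livers, with colour by diet. Foxa3, Cebpa, Prox1 and Hnf4a lie above the other four factors in every liver, and the gap falls between Hnf4a and Cebpb.

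Neighbouring rows on the opposite strand were compared because the strand setting of the counting is not known. The highest such row within 200 kb averaged 2692 units for Hnf4a (Serinc3), 1403 for Foxa1 (4921506M07Rik), 3787 for Foxa3 (Irf2bp1), 17945 for Cebpa (Lrp3) and 7223 for Cebpb (Spata2), and no row lay on the other strand within 200 kb of Foxa2, Onecut1 or Prox1. The highest same-strand rows were 0610039K10Rik for Hnf4a, Rpl26-ps2 for Foxa1, Gm4969 for Foxa3, Pepd for Cebpa, Rnf114 for Cebpb, Arpp19 for Onecut1 and Smyd2 for Prox1, and none of these 7 was called in any comparison. Irf2bp1, 6.52 kb from Foxa3, fell to 2681 ± 568.1 units in HFWD+sugar livers, against 5656 ± 2207 in chow livers (SD, n = 5 and 4, log2 difference -1.03, adjusted p = 0.00552 by limma), with no overlap between the diets. Lrp3, 77.9 kb from Cebpa, stood at 15650 ± 1532 units in HFWD+sugar livers and 19121 ± 596 in chow livers (SD, n = 5 and 4, log2 difference -0.29, adjusted p = 0.0417). That call was lost on leaving out HFWD+sugar 2, 3 or 4, HFWD 1, 2, 3 or 4, or chow 1, 3 or 4, with adjusted p from 0.0513 to 0.104. In the same comparison Foxa3 differed by -0.11 and was not called, and Cebpa rose. Annotated transcripts without a row also overlap on the other strand, 0610008F07Rik over 34913 bases of Hnf4a and Gm17566 over 385 bases of Prox1. The part of reads from neighbouring or overlapping genes in the values of the 8 factors was not tested.

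Of 31 other liver-enriched transcription factors tested, none was called higher and 2 were called lower in HFWD+sugar against chow (all rows: 5.67% higher, 3.38% lower), and none in either direction in HFWD against chow (all rows: 2.44% higher, 0.934% lower). The list median was 0.13, beside 0.12 over all rows. Tef, a clock-controlled factor, stood at 3420 units in HFWD+sugar livers and 4948 in chow livers (log2 difference -0.56, adjusted p = 0.0460 by limma). Xbp1, a factor of the unfolded protein response, stood at 1958 units in HFWD+sugar livers and 2644 in chow livers (log2 difference -0.42, adjusted p = 0.0468). Tef lost its call without HFWD+sugar 1, 2 or 4, HFWD 1, 2, 4 or 5, or chow 1, 3 or 4 (adjusted p 0.0541 to 0.142), and Xbp1 without any 1 HFWD+sugar liver, HFWD 1, or chow 1, 2 or 3 (0.0512 to 0.147). Both also lost it with no filter, with quantile normalization and in a fit of the 2 diets alone (0.0671 to 0.146).

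Known targets of the factors were read from the same table, and a change in a target does not show which factor acts on it. Of 24 HNF4A targets, 2 rose and 1 fell in HFWD+sugar against chow (all rows: 5.67% higher, 3.38% lower), with a list median of 0.31, beside 0.12 over all rows. Apoa4, an apolipoprotein of lipid-rich particles, rose to 872 ± 308 units in HFWD+sugar livers, against 346 ± 265 in chow livers (SD, n = 5 and 4, 2.83-fold, adjusted p = 0.0155 by limma). Ces1g, a lipid-cleaving carboxylesterase, rose to 137 ± 42.9 units in HFWD+sugar livers, against 61.6 ± 24.3 in chow livers (log2 difference 1.17, adjusted p = 0.0290). Apoc3, which slows the clearance of triglyceride, fell to 116293 ± 6369 units in HFWD+sugar livers, against 172856 ± 23631 in chow livers (log2 difference -0.56, adjusted p = 0.00505). Apoa4 lost its call without chow 1 (adjusted p = 0.0530) or chow 3 (0.0597) and with no filter (0.0799). Ces1g lost it without HFWD+sugar 4 or 5 or chow 2 or 3 (0.0508 to 0.101), with no filter (0.0850) and with quantile normalization (0.0506). None of the 24 was called in HFWD against chow.

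Of 14 FOXA targets and 18 tested targets of the C/EBP factors, none rose and 2 fell in each comparison against chow, where 5.67% of all rows were called higher and 3.38% lower in HFWD+sugar, and 2.44% higher and 0.934% lower in HFWD livers. In both lists those were Cps1 and Tat for HFWD+sugar and Cps1 and Pck1 for HFWD, since the lists share these genes. The C/EBP list median was 0.28 in HFWD+sugar and 0.01 in HFWD against chow, with 11 and 9 of the 18 rows higher. The FOXA list median was -0.09 and 0.04, with 6 and 9 of the 14 rows higher. Over all rows the medians were 0.12 and 0.04. Cps1, the first enzyme of the urea cycle, fell to 3016 ± 563 units in HFWD+sugar and 3643 ± 979 in HFWD livers, against 7899 ± 2361 in chow livers (SD, n = 5, 5 and 4). Its log2 difference was -1.36 (adjusted p = 0.00101 by limma) and -1.10 (adjusted p = 0.00713, and 0.0560 with no filter on low rows). Tat, which breaks down tyrosine, fell to 481 ± 263 units in HFWD+sugar livers, against 1376 ± 471 in chow livers (log2 difference -1.60, adjusted p = 0.0120, and 0.0691 with no filter). Pck1, the enzyme of gluconeogenesis, fell to 865 ± 125 units in HFWD livers, against 1305 ± 152 in chow livers (log2 difference -0.60, adjusted p = 0.0230), a call lost without HFWD 1, HFWD 3, chow 1 or chow 3 (0.0574 to 0.0855) and with no filter (0.0813).

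Of 8 tested genes of fetal liver and dedifferentiation, 1 rose in HFWD+sugar against chow, where 5.67% of all rows rose, and none was called in HFWD against chow. The list median was 0.43 and 0.35 in these comparisons, beside 0.12 and 0.04 over all rows, with 6 of the 8 higher in each. Tff3, a small secreted peptide, rose 1.53-fold in HFWD+sugar livers (adjusted p = 0.0320 by limma), a call lost without HFWD+sugar 4, HFWD+sugar 5 or chow 3 (0.0770 to 0.114), with centring (0.139) and with no filter (0.108). Afp, the fetal albumin, averaged 275 ± 79.4 units in HFWD+sugar livers and 164 ± 45.3 in chow livers without passing (adjusted p = 0.0512). Dlk1 and Lin28b were at the floor of 1 in every liver. In HFWD+sugar against HFWD no row of any list was called, as in the table as a whole.

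In RNA of whole liver, fewer cells of a type and less RNA per cell cannot be told apart, so marker rows were read beside the factors. Of 14 hepatocyte markers, 3 fell in HFWD+sugar against chow, Cps1, Tat and Ass1, and 2 in HFWD against chow, Cps1 and Pck1. Ass1, a later enzyme of the urea cycle, fell to 66.2 ± 21.6 units in HFWD+sugar livers, against 137 ± 32.6 in chow livers (adjusted p = 0.0487 by limma), and was lost without HFWD+sugar 2, 3, 4 or 5, HFWD 2, 4 or 5, or chow 1, 3 or 4 (0.0576 to 0.115), with no filter (0.127) and in a fit of the 2 diets alone (0.0551). Over all rows 3.38% and 0.934% were called lower. The list median was -0.05 and -0.09, and 5 of the 14 rows were higher in each comparison. The summed hepatocyte list ran from 259427 to 338687 units in HFWD+sugar, 290897 to 531607 in HFWD and 360845 to 798665 in chow livers. The Fgb row, for a fibrinogen chain, made up 89.3% of the sum in HFWD+sugar, 91.4% in HFWD and 92.4% in chow livers. The other 13 rows summed to 28874 to 37077 units in HFWD+sugar, 28194 to 36583 in HFWD and 34106 to 39834 in chow livers, which overlap.

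No cholangiocyte marker of 7 tested was called, with sums of 28.5 to 90.1 units in HFWD+sugar, 34.9 to 63.8 in HFWD and 18.3 to 97.2 in chow livers and with Krt19 and Cftr at the floor in all 14. None of 9 endothelial markers was called, with sums of 4283 to 5483 units in HFWD+sugar, 4384 to 5722 in HFWD and 4670 to 5912 in chow livers. The Oit3 row made up 65.2% of the sum in HFWD+sugar, 65.2% in HFWD and 62.7% in chow livers. Against chow, 7 of the 9 rows were higher in HFWD+sugar livers and 4 in HFWD livers. The endothelial medians were 0.56 and -0.02, beside 0.12 and 0.04 over all rows. Of 8 macrophage and neutrophil markers only Cd5l, a Kupffer cell gene, rose in HFWD+sugar against chow, to 106 ± 55.8 units in HFWD+sugar livers, against 35.3 ± 12.5 in chow livers (adjusted p = 0.00990). That list summed to 2284 to 2691 units in HFWD+sugar, 2378 to 2832 in HFWD and 1988 to 2979 in chow livers, and Ly6g was at the floor. Csf1r, at a mean of 2011 units over the 14 livers, was the largest part of that sum. Of 10 stellate cell markers, Col3a1, a fibrillar collagen, rose to 51.7 ± 24.5 units in HFWD+sugar livers, against 15.1 ± 2.52 in chow livers (adjusted p = 0.0114), and Hand2 was lower at 421 ± 25.8 units in HFWD+sugar livers, against 552 ± 70.7 in chow livers (adjusted p = 0.0394, lost without HFWD+sugar 1, 2, 4 or 5, HFWD 2, or chow 1, 3 or 4, 0.0501 to 0.121, and in a fit of the 2 diets alone, 0.0764). The stellate list summed to 631 to 812 units in HFWD+sugar, 564 to 771 in HFWD and 709 to 877 in chow livers. Hand2, at a mean of 459 units over the 14 livers, was the largest part of that sum. Against chow, 8 of the 10 stellate rows were higher in HFWD+sugar livers and 4 in HFWD livers. Their medians were 0.39 and -0.08, beside 0.12 and 0.04 over all rows. Of 5 lymphocyte markers only the Cd8a row was lower in HFWD+sugar against chow (14578 ± 1379 units in HFWD+sugar livers, against 17703 ± 996 in chow livers, adjusted p = 0.0370, lost without HFWD+sugar 1, 2, 4 or 5 or chow 1, 3 or 4, 0.0521 to 0.102, and with quantile normalization, 0.210), with sums of 12538 to 16218 units in HFWD+sugar, 14350 to 15337 in HFWD and 16701 to 19080 in chow livers, of which the Cd8a row made up 99.7% in HFWD+sugar, 99.7% in HFWD and 99.8% in chow livers, and Nkg7 and Klrb1c were at the floor. The part of these cell types in the values of the 8 factors was not tested.

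The rows most like each factor were the 3 with the highest Pearson r of log2 values over the 14 livers, diets pooled, among 6215 tested rows with a mean of at least 100 units. As they were picked for this likeness from so many, they carry no test. Cebpa was most like Col4a6 (r = 0.95), Hjurp and Zkscan2 (both 0.94), and Foxa1 like Cul9 (0.93), Hsp90ab1 (0.91) and Prdx1 (0.89). Foxa2 and Onecut1 shared Atl2 among their 3 (0.87 and 0.85); the others were E2f8 (0.86) and Baz1b (0.79) for Foxa2, and 1500003O03Rik (0.89) and Bcl6 (0.81) for Onecut1. Foxa3 was most like Fuz (0.90), Ppp6r2 (0.90) and Prr3 (0.86), Hnf4a like Sar1b (0.85), Atg14 (0.84) and Paf1 (0.82), and Cebpb like Irf7 (0.90), Fzd9 (0.89) and Ybey (0.88). Prox1 was most like Prrx2 (0.86), Mup15 (0.85) and Gm11437 (0.84). With diet means removed these values ranged from 0.78 to 0.93. Foxa2, Onecut1 and Cebpb themselves average under 100 units and so could not appear among the rows most like another factor.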

How the data were processed

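RNA was sequenced from 14 livers, 1 library each. The deposited signal is, per the file headers, a normalized expression value per gene row with coordinates and strand; per the submitters' processing notes reads were aligned to mm9 with TopHat2 2.0. No source used here states the counter, its strand setting or the scaling. Diets were taken from the treatment label; the titles of the 4 chow libraries name the diet differently. Libraries are numbered in series order within a diet. The 8 factors and all gene lists were chosen with earlier results of these data known.

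The floor of 1 marks rows with no signal. Rows above it in at least 4 libraries (14770 of 22850, all 8 factors among them) were tested as log2(value + 1), with a pseudocount of 1, in one limma 3.58.1 fit over all 14 libraries with a trended variance (R 4.3.3), adjusted by Benjamini and Hochberg over all rows tested, threshold 0.05. A fold change on this scale understates that of low rows. The most common value above the floor in each library, its step, gave read equivalents. Only 53.9% to 63.9% of values up to 20 steps were within 0.02 of a whole step, so no count test was run. Depth in read equivalents is approximate, and it covers counting error only. Single values and differences between factors were tested by two-sided exact permutation, and pairs by 100000 permutations within diets (numpy 2.4.6, scipy 1.17.1). Exon lengths came from the GENCODE annotation of mm9 and promoters from RefSeq.

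Named rows were the 8 factors, the highest row within 200 kb on each strand, the 2 called rows with the smallest p per list and comparison, and the 3 rows most like each factor; Ces1g, Ass1, Afp, Tmem189 and the marker rows at the floor were named after their values were seen. Alternatives were a pseudocount of 10, no filter or a mean of at least 20, centring, quantile normalization, array weights, fits of 2 diets alone, the exact permutation test in place of limma and leaving out libraries.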

Additional observations from a re-analysis of the deposited data

Results flagged for a closer look

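Dixon's ratio, the gap to the nearest liver over the range of the group, was taken in 24 groups of a factor and a diet. It flagged a liver in 2 groups, where normally distributed values would give about 5% of groups. Both were chow 4, the library with the fewest read equivalents, with ratios of 0.854 for Cebpa and 0.832 for Foxa1. The ratio was taken on units and not on the log2 scale of the other tests, where a single high value stands out less. Its Cebpa value was 2692 units, and the nearest other chow liver had 1193 units. Its Foxa1 value was 116 units, and the nearest other chow liver had 66.3 units. Without chow 4, the log2 difference of Cebpa was 1.49 in HFWD+sugar against chow and 1.35 in HFWD against chow. The part of depth in these values was not tested.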

How the results depend on the processing

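No paired analysis was possible because the replicate numbers only name libraries in series order and link no livers across diets. The settings without chow 4 with centring, and without chow 4 for pairs, were chosen after seeing the data. Sign changes among the 8 factors and their neighbours fell on differences that were not called, and the cause was not tested. Over the limma alternatives run, 491 of 552 log2 differences of a factor kept sign and side of the threshold, 47 changed sign, 8 gained and 6 lost a call.

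In HFWD+sugar against chow, where 1336 rows and 1 factor were called, no filter on low rows (22850 tested) gave 774 rows and 0 factors, and array weights gave 2174 rows and 2 factors, Cebpa and Foxa1. A fit of those 2 diets alone gave 745 rows. Cebpa was otherwise called in every limma setting of the whole set of libraries, while its exact permutation p was 0.0635. Lrp3 lost its call with no filter, quantile normalization and the fit of 2 diets. Without both chow 2 and chow 4, Lrp3, Ces1g, Ass1 and Cd8a lost their calls, without chow 4 and centred Tff3 and Cd8a did, and in the fit of 2 diets Cd8a did. Serinc3 (log2 difference -0.74, adjusted p = 0.116 by limma) gained a call with centring (0.0372), array weights (0.0384) and without chow 4 (0.0142), among other settings without chow 4. Tmem189 (-0.64, adjusted p = 0.102) gained a call with centring (0.0429), without HFWD+sugar 3 (0.0125) and without chow 4 when centred (0.0435). With a pseudocount of 10, Foxa2 turned to -0.015 and Onecut1 to -0.028. Centring gave Foxa2 -0.15, Onecut1 -0.061, Prox1 -0.044 and 4921506M07Rik -0.064. Quantile normalization gave Foxa2 -0.25 and Onecut1 -0.18, and array weights gave Foxa2 -0.13 and Onecut1 -0.016. Without both chow 2 and chow 4, Foxa2 was -0.16, Prox1 -0.036 and 4921506M07Rik -0.0047. Without chow 4 and centred, Foxa2 was -0.70, Onecut1 -0.74 and 4921506M07Rik -0.11.

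In HFWD against chow, where 499 rows and 0 factors were called, no filter gave 309 rows, centring 275, a fit of 2 diets 240, array weights 1021 and leaving out chow 2 and chow 4 gave 916. Cebpa was the 1 factor called with array weights, without chow 2 and chow 4, and without chow 4 when centred. Irf2bp1 (log2 difference -0.68, adjusted p = 0.0817 by limma) gained a call with array weights (0.0325), without chow 4 (0.0167) and without chow 4 when centred (0.0233). Centring gave Hnf4a -0.011, Foxa3 -0.059 and Lrp3 -0.054. Array weights gave Hnf4a -0.068, Foxa3 -0.0084 and Spata2 0.011. Without chow 2 and chow 4, Hnf4a was -0.17, Foxa3 -0.014, 4921506M07Rik -0.057 and Spata2 0.047. Without chow 4 and centred, Foxa3 was -0.11, 4921506M07Rik -0.020 and Lrp3 -0.025. In HFWD+sugar against HFWD, centring, with or without chow 4, gave Cebpa -0.011 and 4921506M07Rik -0.093, and quantile normalization gave Spata2 0.015. The number of pairs that passed was 2 with centring, against 1.

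Leaving out 1 library at a time gave 674 to 1768 rows and 0 to 2 factors called in HFWD+sugar against chow. The count moved by over 1.5 times without HFWD+sugar 2 (860), 4 (674) or 5 (880) and without chow 1 (858) or 3 (742). In HFWD against chow it gave 255 to 1051 rows and 0 to 2 factors, with such moves without HFWD 1 (326) or 4 (255) and chow 1 (308), 3 (300) or 4 (1051), and in HFWD+sugar against HFWD 0 to 1 rows, the 1 without HFWD 1. The differences that changed sign ranged, for HFWD+sugar against chow, from -0.50 to 0.47 (Foxa2), -0.54 to 0.75 (Onecut1) and -0.039 to 0.35 (Prox1). For HFWD against chow they ranged from -0.095 to 0.22 (Hnf4a), -0.77 to 0.20 (Foxa2), -0.057 to 0.056 (Foxa3), -0.39 to 0.072 (Cebpb), -0.80 to 0.49 (Onecut1), -0.013 to 0.054 (Lrp3), -0.062 to 0.050 (Spata2) and -0.20 to 0.046 (Tmem189). For HFWD+sugar against HFWD they ranged from -0.28 to 0.0013 (Foxa1), -0.0080 to 0.51 (Foxa2), -0.047 to 0.27 (Cebpa), -0.060 to 0.54 (Onecut1) and -0.018 to 0.11 (4921506M07Rik). Foxa3 minus Foxa2 ranged from -0.53 to 0.33 in HFWD+sugar and -0.14 to 0.72 in HFWD against chow, and Prox1 minus Hnf4a from -0.00073 to 0.27 in HFWD+sugar against HFWD. The rows of Foxa2 and Onecut1 rest on few reads, and a fall of 2-fold lay inside their 95% intervals against chow.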
